A study of Arabidopsis thaliana with 12 samples.

Results

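RR16, UGT76C1 and UGT76C2 are 3 cytokinin genes of Arabidopsis thaliana, described here across 4 treatment groups of a study of an inhibitor of auxin biosynthesis. They were chosen by name, as the genes with a probe set that the platform annotation pairs with that gene alone. Each of the 3 has 1 such probe set, out of 13356 genes with a probe set of their own. The plants were whole Col-0 plants grown for 7 days in shaken liquid MS medium under continuous light. The Mock plants received DMSO, the solvent. The L-AOPP plants received 50 µM L-AOPP (2-aminoxy-3-phenylpropionic acid), which the submitters studied as an inhibitor of auxin biosynthesis, for 3 h. The L-AOPP+IAA plants also received 1 µM of the auxin IAA 1 h after L-AOPP, and the L-AOPP+IPyA plants instead received IPyA (indole-3-pyruvic acid), the precursor of IAA, at that same time. All 4 groups are of 1 ecotype and share the solvent, and the dose of IPyA is given as 100 µM in the sample descriptions and as 0.1 µM in the treatment protocol. Each group has 3 arrays, numbered replicate 1 to 3, and the labels do not say that these came from separate cultures, so p-values here speak of the spread between samples, which may be technical. Comparisons that share the arrays of any group are not independent of each other.

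Cytokinins are adenine-derived hormones that promote shoot growth and cell division and restrain root growth. They are perceived by membrane histidine kinases, and a phosphorelay carries the signal to response regulators in the nucleus. Type-B regulators switch target genes on, while type-A regulators are themselves fast targets and dampen the response, so their transcript level is widely used as a readout of cytokinin signalling. RR16, also known as ARR16, is a type-A regulator. UGT76C1 and UGT76C2 transfer glucose to ring nitrogens of cytokinins, which inactivates the hormone. Auxin and cytokinin act against each other in many tissues, and each can alter the synthesis, breakdown or signalling of the other. L-AOPP is also known to inhibit phenylalanine ammonia-lyase, the entry enzyme of phenylpropanoid synthesis.

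The deposited values are MAS5 signals, linear brightness values per probe set, with the mean of each array after trimming 2% at both ends at the same level (500.04 to 500.05). Array medians ranged from 169.2 to 185.45. The 3' to 5' signal ratio of GAPDH, which rises as RNA degrades, ranged from 1.12 to 1.51. The same ratio ranged from 7.774 to 14.54 for actin and from 2.022 to 2.699 for ubiquitin. Deviations from the group means were shared by arrays of 1 replicate number, so values are also given within each number. Early auxin genes were higher with IAA than with L-AOPP alone. They were chosen with earlier results of these data known, so this is a description and not an independent check. HAT2, a homeobox-leucine zipper gene, rose by 2.32 log2 units (limma, adjusted p = 3.95e-06) and GH3.3, which encodes an IAA-conjugating enzyme, by 3.58 (adjusted p = 0.00364). None of the 5 early auxin genes had a lower mean with L-AOPP than in Mock. The log2 difference was 0.69 for GH3.3 and 0.22 for HAT2 (limma, paired adjusted p = 0.186 and 0.306). Both were higher in 3 of 3 pairs, as were 17.2% of all tested probe sets. For LBD16, IAA29 and IAA30 the difference was 0.18 to 0.24, and 0 of 5 was called by either fit. IPyA against L-AOPP gave -0.26 for GH3.3, 0.00025 for HAT2, 0.05 for LBD16, -0.51 for IAA29 and -0.23 for IAA30, with 0 of 5 called by either fit. As markers of shoot and root in whole plants, RCA, the activase of the carbon-fixing enzyme in green tissue, had signals of 14809 to 19032.3. The root hair expansin genes EXPA7 and EXPA18 gave 258.7 to 1928.5 and 272.4 to 1207.8, with the highest value of each group in replicate 1. The log2 difference of EXPA18 was 0.67 for L-AOPP against Mock (limma, paired adjusted p = 0.115). For L-AOPP+IAA against L-AOPP it was -0.69 (paired interval -1.08 to -0.31, paired adjusted p = 0.0507). There EXPA18 was lower in 3 of 3 pairs, as were 20.1% of all tested probe sets. EXPA7 gave 0.72 and -0.42 in the same comparisons (paired adjusted p = 0.178 and 0.404). For L-AOPP+IPyA against L-AOPP, EXPA7 gave -0.62 and EXPA18 -0.60 (limma, paired adjusted p = 0.361 and 0.267). Both were lower there in 3 of 3 pairs, as were 16.6% of all tested probe sets. The part of root hair tissue in the results on RR16, UGT76C1 and UGT76C2 was not tested. In whole-plant RNA, a change in the share of cells that express a gene and a change in RNA per cell cannot be told apart.

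RR16 was lowest in the plants given IAA, in every replicate, but the difference was not called. Its probe set had a signal of 62 to 141.9, with a mean at the 41.1 percentile of all probe sets that are not controls. Such a percentile says how bright a probe set is, not how abundant its transcript is. All 3 probe sets passed the brightness filter, which removed the dimmest 30% (a mean signal of 47.4 or less). In Mock, RR16 stood at 132.6, 117.3 and 126.5 in replicates 1, 2 and 3. With L-AOPP it read 91.9, 116.7 and 115.1, with the highest of these just under the lowest Mock value. With L-AOPP+IAA the values were 62, 85.3 and 90.4, the lowest 3 of all 12 arrays. The share of all probe sets with such an order was not counted. With L-AOPP+IPyA the values were 91.2, 117 and 141.9, which overlap both Mock and L-AOPP.

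The order of RR16 by group mean was Mock (125 ± 7.70, SD, n = 3), L-AOPP+IPyA (117 ± 25.4), L-AOPP (108 ± 13.9) and L-AOPP+IAA (79.2 ± 15.1). The first 3 were not separated from their neighbours beyond their spread. L-AOPP+IAA lay below L-AOPP, its neighbour in that order, with no overlap of the 3 and 3 arrays, which was the case for 4.66% of all 15922 tested probe sets. It also lay below Mock with no overlap (3.47% of probe sets), and L-AOPP+IPyA lay above it with no overlap (3.13%). L-AOPP lay below Mock with no overlap as well, by a margin of under 1 signal unit (3.77% of probe sets).

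**Figure D1:**
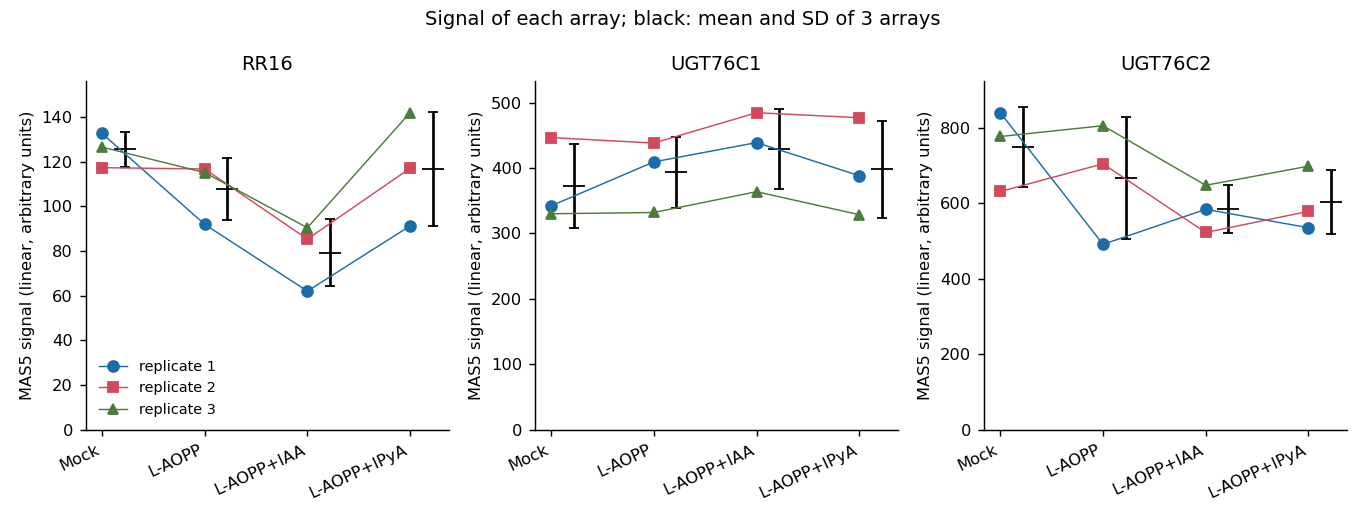
MAS5 signal (y axis, linear, from 0) of RR16, UGT76C1 and UGT76C2 in the 4 groups (x axis); coloured lines join arrays with the same replicate number, and black marks give the mean and SD of 3 arrays. The 3 L-AOPP+IAA arrays hold the lowest RR16 signals (62 to 90.4), and UGT76C1 is highest in replicate 2 and lowest in replicate 3 in each of the 4 groups.

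None of these differences of RR16 passed the threshold, an adjusted p under 0.05 in limma's test over all tested probe sets. The intervals of RR16 in this and the next paragraph are from the fit without pairing. The change of RR16 from L-AOPP to L-AOPP+IAA was -0.46 on the log2 scale (95% interval -0.91 to -0.0064, adjusted p = 0.83), a signal 1.37-fold lower. Within replicates 1, 2 and 3 it was -0.57, -0.45 and -0.35, lower in 3 of 3 pairs, as were 20.1% of all tested probe sets. From Mock to L-AOPP+IAA the change was -0.68 (-1.13 to -0.23, adjusted p = 0.427), 1.60-fold lower, with -1.10, -0.46 and -0.48 in the pairs. Here 18% of probe sets were lower in 3 of 3 pairs.

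The comparison of the auxin with its precursor gave RR16 a log2 difference of 0.55 (0.10 to 1.00, adjusted p = 0.806), higher with IPyA in 3 of 3 pairs (0.56, 0.46 and 0.65), as were 16.8% of probe sets. L-AOPP against Mock was smaller, at -0.22 (-0.67 to 0.23, adjusted p = 1). Its pairs were -0.53, -0.0074 and -0.14, so the size came mainly from replicate 1, although all had the same sign, as they had for 15% of probe sets. IPyA against L-AOPP gave 0.10 (-0.35 to 0.55), and IPyA against Mock -0.13 (-0.58 to 0.32), each with an adjusted p of 1. Leaving out the L-AOPP+IAA replicate 1 array, the lowest of all, left a change of -0.29 from L-AOPP, and leaving out replicate 1 throughout left -0.47 from Mock.

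UGT76C1, one of the N-glucosyltransferase genes, differed more by replicate number than by treatment. Its probe set stood at the 67.3 percentile of brightness, with a highest signal 1.47-fold above the lowest. In Mock its signal was 342.2, 446.6 and 330.1 in replicates 1, 2 and 3. With L-AOPP it was 409.4, 438.2 and 332, and with L-AOPP+IPyA 388.3, 477 and 328.7. With L-AOPP+IAA it was 438.9, 484.6 and 363.8, the highest value of each replicate number. The share of all probe sets with such an order was not counted. All groups overlapped. Of the variance of its log2 signal over the 12 arrays, 80.2% went with the replicate number, 13% with the group and 6.87% with neither. With the group went 62.9% of the variance of RR16 and 31.5% of that of UGT76C2. With the replicate number went 21.5% and 28.5%, in the same order. Such shares were not computed for other probe sets. Replicate 2 averaged 462 ± 22.6 (SD, n = 4 arrays, 1 per group), replicate 1 averaged 395 ± 40.7 and replicate 3 averaged 339 ± 16.8. The GAPDH ratio averaged 1.38, 1.36 and 1.17 in replicates 2, 1 and 3. In the same order, the actin ratio averaged 12.9, 10.48 and 12.26 and the ubiquitin ratio 2.142, 2.445 and 2.11. The part of these ratios in the differences between replicate numbers was not tested.

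In order of mean signal, UGT76C1 stood at 429 ± 61.0 in L-AOPP+IAA, 398 ± 74.6 in L-AOPP+IPyA, 393 ± 54.9 in L-AOPP and 373 ± 64.1 in Mock (SD, n = 3). Every step between neighbours was smaller than the SD of either group. Within the pairs, L-AOPP+IAA was above L-AOPP by 0.10, 0.15 and 0.13, higher in 3 of 3 as were 17.4% of probe sets. The mean was 0.13, with an unpaired 95% interval of -0.27 to 0.52 (adjusted p = 1). The paired interval was -0.07 to 0.32 (limma, paired adjusted p = 0.567). L-AOPP+IAA was above Mock by 0.36, 0.12 and 0.14, where 16.5% of probe sets were higher in 3 of 3. The mean was 0.21, with an unpaired interval of -0.19 to 0.60 (adjusted p = 1). The paired interval was 0.0088 to 0.40 (limma, paired adjusted p = 0.386). The intervals that follow for UGT76C1 are unpaired. L-AOPP+IPyA was below L-AOPP+IAA by 0.18, 0.023 and 0.15 in the pairs, as were 14.4% of probe sets in 3 of 3, with a mean difference of -0.12 (-0.51 to 0.28). L-AOPP against Mock (0.08, -0.31 to 0.47), IPyA against L-AOPP (0.01, -0.38 to 0.40) and IPyA against Mock (0.09, -0.30 to 0.48) each had pairs of both signs.

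UGT76C2, the adjacent glucosyltransferase gene, was lower than in Mock in each pair with IAA or IPyA, again with no difference called. Its probe set stood at the 77.5 percentile of brightness. In Mock its signal was 840.8, 631.8 and 777.7 in replicates 1, 2 and 3. With L-AOPP it was 491.5, 705.2 and 806.3, so the lowest of all 12 arrays and the second highest fell in the same group. With L-AOPP+IAA it was 584.5, 523 and 648.2, and with L-AOPP+IPyA 535.7, 579 and 698.9. The treated groups overlapped Mock in every case.

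The order of UGT76C2 by mean was Mock (750.1 ± 107, SD, n = 3), L-AOPP (668 ± 161), L-AOPP+IPyA (605 ± 84.5) and L-AOPP+IAA (585 ± 62.6), again with steps smaller than the spread. It was lower in L-AOPP+IAA than in Mock in 3 of 3 pairs (-0.52, -0.27 and -0.26), as were 18% of probe sets. The mean was -0.35, with an unpaired 95% interval of -0.76 to 0.05 (adjusted p = 1). The paired interval was -0.66 to -0.05 (limma, paired adjusted p = 0.327). L-AOPP+IPyA was also lower than Mock in 3 of 3 pairs (-0.65, -0.13 and -0.15), as were 11.4% of probe sets. The mean was -0.31, with an unpaired interval of -0.72 to 0.10 (adjusted p = 1). The paired interval was -0.62 to -0.0033 (limma, paired adjusted p = 0.868). The intervals that follow for UGT76C2 are unpaired. Against L-AOPP alone the pairs disagreed. The change with IAA was 0.25 in replicate 1 and -0.43 and -0.31 in replicates 2 and 3 (mean -0.17, -0.57 to 0.24). With 1 array or 1 replicate number left out, it ranged from -0.37 to -0.014. The first value was the paired estimate without replicate 1 (limma, adjusted p = 0.0602), and the second the estimate without L-AOPP replicate 3. The change with IPyA was 0.12, -0.28 and -0.21 in the same order (mean -0.12, -0.53 to 0.29). L-AOPP against Mock was -0.77 in replicate 1 but 0.16 and 0.05 in the others (mean -0.19, -0.60 to 0.22). IPyA against IAA gave 0.04 (-0.36 to 0.45).

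**Figure D2:**
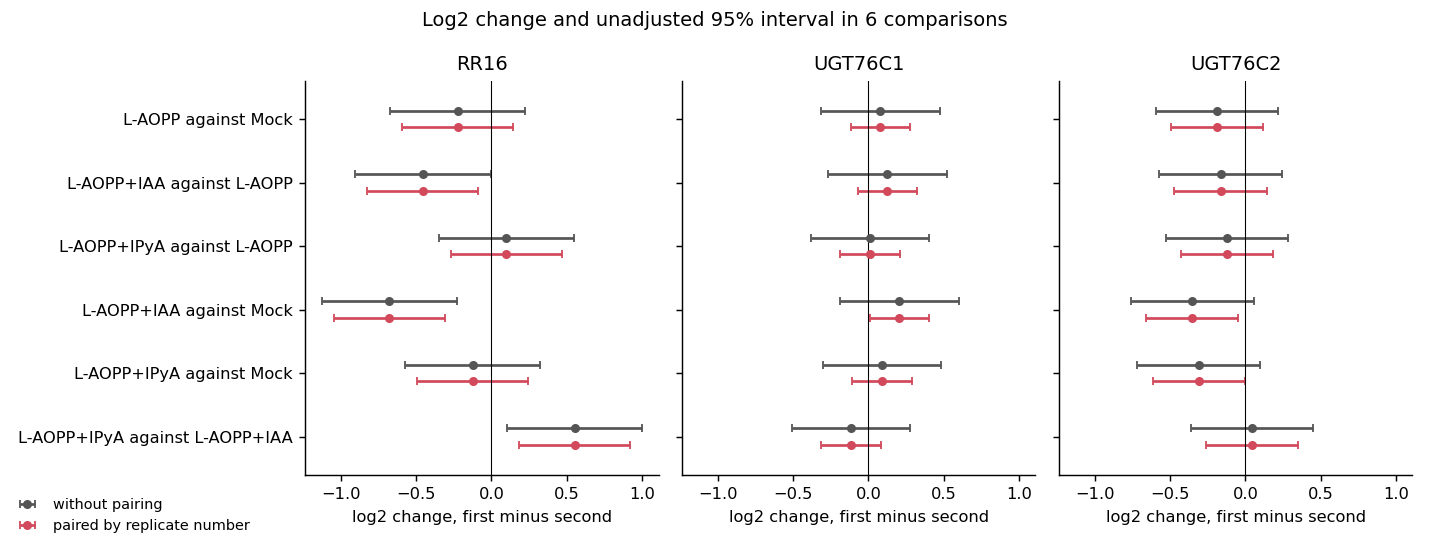
Log2 change (x axis) of RR16, UGT76C1 and UGT76C2 in 6 comparisons (y axis, first group minus second), with 95% intervals not adjusted for multiple tests, from the fit without pairing (grey) and the fit paired by replicate number (red). The intervals of RR16 lie off 0 in the 3 comparisons that hold L-AOPP+IAA, and its widest shift is -0.68 against Mock. With pairing, UGT76C1 and UGT76C2 lie off 0 too for IAA against Mock, and UGT76C2 for IPyA against Mock. In limma, 16%, 12% and 10.4% of probe sets had a paired unadjusted p under 0.05 for IAA against L-AOPP, Mock and IPyA. Without pairing these shares were 5.90%, 4.24% and 4.40%. For IPyA against Mock the paired share was 5.54%.

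Without pairing, 0 of the 3 genes was called in any of the 6 comparisons. The same limma fit called 0% of probe sets for L-AOPP against Mock, 0.396% for IAA against L-AOPP, 0% for IPyA against L-AOPP, 0.446% for IAA against Mock, 0% for IPyA against Mock and 0.377% for IPyA against IAA. At an unadjusted p under 0.05, RR16 counted in the 3 comparisons with L-AOPP+IAA, alone among these genes, where 5.90%, 4.24% and 4.40% of probe sets did (against L-AOPP, Mock and IPyA). A test over all 4 groups called 0.339% of probe sets and 0 of the 3 genes, with an unadjusted p of 0.0321 for RR16, 0.727 for UGT76C1 and 0.281 for UGT76C2.

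With the replicate number as a block, 0 of the 3 genes was called as well. This paired limma fit called 0.578% of probe sets for L-AOPP against Mock, 3.71% for IAA against L-AOPP, 0.176% for IPyA against L-AOPP, 1.7% for IAA against Mock, 0% for IPyA against Mock and 1.94% for IPyA against IAA. RR16 in IAA against Mock came nearest, with an adjusted p of 0.0733. At an unadjusted p under 0.05 all 3 genes counted in IAA against Mock, as 12% of probe sets did, and UGT76C2 in IPyA against Mock, as 5.54% did. RR16 counted too in IAA against L-AOPP (16% of probe sets, adjusted p = 0.188) and in IPyA against IAA (10.4% of probe sets, adjusted p = 0.17). The paired intervals for IAA against Mock were -1.05 to -0.31 for RR16, 0.0088 to 0.40 for UGT76C1 and -0.66 to -0.05 for UGT76C2. The paired test over the 4 groups called 2.91% of probe sets, and RR16 had an adjusted p of 0.143, UGT76C1 of 0.585 and UGT76C2 of 0.446.

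UGT76C1 and UGT76C2 encode related enzymes, so their signals were also set against each other. Within an array, the log2 ratio of the UGT76C1 to the UGT76C2 signal averaged -1.01 ± 0.44 in Mock, -0.74 ± 0.51 in L-AOPP, -0.61 ± 0.42 in L-AOPP+IPyA and -0.45 ± 0.36 in L-AOPP+IAA (SD, n = 3). Only the change of this ratio between groups can be read, since the probe sets differ in brightness per transcript. Its largest shift, 0.56 from Mock to L-AOPP+IAA, had an exact permutation p of 0.2 (two-sided, 0.6 after adjustment over the 6 comparisons), and 3 against 3 arrays cannot give a p under 0.1. Within replicates 1, 2 and 3 this shift was 0.88, 0.39 and 0.40, and from Mock to L-AOPP+IPyA it was 0.83, 0.22 and 0.15. Both had an exact sign-flip p of 0.25, the smallest that 3 pairs allow, as had IPyA against IAA (-0.05, -0.17 and -0.26).

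After the mean of each replicate number was taken off, RR16 and UGT76C1 varied in opposite directions over the 12 arrays. Pearson's r was -0.904 and Spearman's rho -0.825, and r was -0.756 without the 2 arrays farthest from the RR16 median and -0.795 over the 9 arrays without IAA. RR16 and UGT76C2 gave r = 0.606 (rho 0.434), with 0.47 without the farthest 2, and UGT76C1 and UGT76C2 gave r = -0.788 (rho -0.741). These are descriptions chosen after the values had been seen, with no test. The 12 arrays share their 4 treatments and the means taken off, and Mock replicate 1, the highest for RR16 and UGT76C2 and the lowest for UGT76C1 on this scale, sits at one end of each relation.

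**Figure D3:**
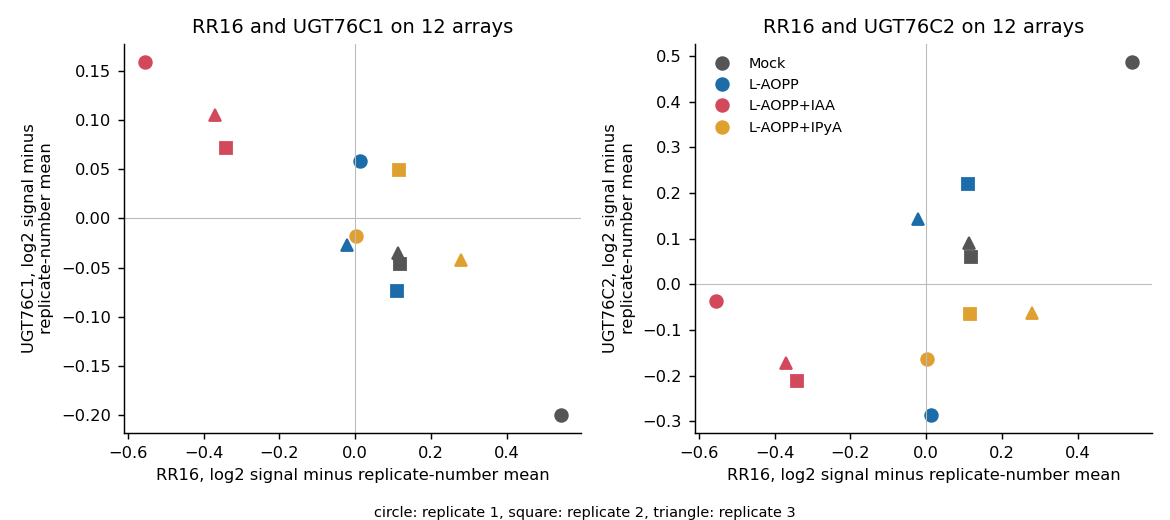
Log2 signal of RR16 (x axes) against UGT76C1 (left) and UGT76C2 (right) on 12 arrays, each as the difference from the mean of its replicate number; colours are groups and shapes are replicate numbers. The 3 L-AOPP+IAA arrays sit at the low end of RR16 and the high end of UGT76C1, and Mock replicate 1 at the opposite end.

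In the RefSeq gene table for the TAIR10.1 assembly, UGT76C2 (AT5G05860) and UGT76C1 (AT5G05870) are next to each other, with 0 protein-coding genes between them. AT5G05880, AT5G05890 and AT5G05900, which that table leaves unnamed, follow, and PIRL1 (AT5G05850, not measured here by a probe set of its own) and AT5G05840 precede. These neighbours were added by position after the members' values had been seen. AT5G05880 read 812.7, 579.1 and 702.9 with L-AOPP and 696.9, 353.6 and 522 with L-AOPP+IAA, lower in 3 of 3 pairs, as were 20.1% of probe sets. It changed by -0.45 ± 0.11 (SE of the paired fit, adjusted p = 0.0471, with an adjusted p of 1 without pairing), and its paired call ended without replicate 2 (-0.33, adjusted p = 0.501) or replicate 3 (adjusted p = 0.166). From L-AOPP to L-AOPP+IPyA, AT5G05880 changed by -0.30 (limma, paired adjusted p = 0.406). There too it was lower in 3 of 3 pairs, as were 16.6% of probe sets. AT5G05900 read 157.6, 116.7 and 155.5 with L-AOPP. These values were above all Mock arrays (110.5, 37.6 and 73), and 3.98% of probe sets were higher with no overlap. AT5G05900 was also lower in all L-AOPP+IAA arrays (62.3, 75.8 and 83) than with L-AOPP, as were 4.66% of probe sets with no overlap. The L-AOPP+IPyA arrays (112.9, 101.9 and 92.3) lay below L-AOPP with no overlap as well, as did 3% of probe sets. The log2 differences of AT5G05900, 1.08 for L-AOPP against Mock (adjusted p = 1, paired 0.0999) and -0.96 for IAA against L-AOPP (adjusted p = 0.471, paired 0.0813), were not called. Neither was -0.48 for IPyA against L-AOPP (limma, paired adjusted p = 0.608). AT5G05890 stayed within 546.5 to 914.4 with no difference called, and the paired 95% interval of its change with IAA was -0.25 to 0.12. No difference between neighbours was tested.

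**Figure D4:**
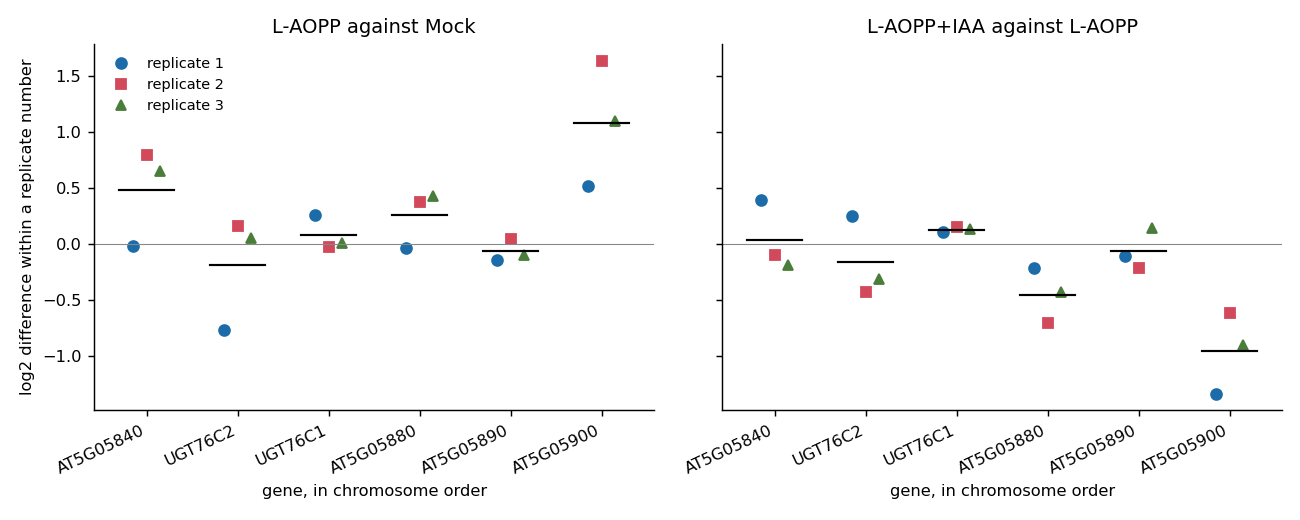
Log2 difference within each replicate number (y axis, points) and its mean (black line) for UGT76C2, UGT76C1 and measured neighbours in chromosome order (x axis), for L-AOPP against Mock (left) and L-AOPP+IAA against L-AOPP (right). AT5G05900 is above 0 on the left and below 0 on the right in 3 of 3 pairs, while UGT76C1 stays within 0.26 of 0 in both. Each side alone held for 17.2% (left) and 20.1% (right) of tested probe sets.

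Near RR16 (AT2G40670), AT2G40640, AT2G40650 and AT2G40660 on one side and AT2G40700 on the other were measured. Of these 4, 0 was called in any comparison by either limma fit. Between L-AOPP+IAA and L-AOPP, AT2G40640 differed by -0.40, AT2G40650 by 0.08, AT2G40660 by -0.05 and AT2G40700 by 0.08. AT2G40640 was lower in 3 of 3 pairs, as were 20.1% of probe sets. Its L-AOPP+IAA arrays also lay below Mock with no overlap, as did 3.47% of probe sets. That log2 difference was -0.38 (limma, paired adjusted p = 0.464).

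Of 73 distinct loci on a cytokinin list covering synthesis, activation, breakdown, conjugation, transport, perception and response, 7 have a probe set paired with them alone, the 3 described and 4 others. All of those 4 fell under the brightness filter, so 0 of 4 was tested. ARR15, another type-A regulator, had signals of 8.4 to 46.2. RR18 and RR19, type-B regulators, had 4.6 to 45.4 and 4.6 to 43.9, and UGT73C1, a glucosyltransferase that acts on cytokinins in vitro, had 1.6 to 32.7. In the limma fit without the filter 0 of the 4 was called in any comparison. At these dim levels the log2 differences between L-AOPP+IAA and L-AOPP went both ways. ARR15 gave -0.80 (groups overlapping), lower in 3 of 3 pairs, as were 20.1% of the brighter, tested probe sets. RR18 gave -1.11, RR19 1.04 and UGT73C1 0.53, each with pairs of both signs. RR19 read 43.9, 43.4 and 29.6 with L-AOPP+IPyA and 26.5, 4.6 and 8 with L-AOPP. These do not overlap, and the log2 difference was 1.95 (95% interval 0.71 to 3.20, not adjusted for multiple tests). RR18 with L-AOPP and RR19 with L-AOPP+IPyA also lay above Mock with no overlap (log2 differences 0.93 and 0.89). The margins were narrow. The lowest treated value stood at 19.8 against a highest Mock value of 19 for RR18, and at 29.6 against 29.5 for RR19. Tested probe sets leave out these dim ones. Of them, 3.01% were higher with no overlap for IPyA against L-AOPP, 3.98% for L-AOPP against Mock and 2.14% for IPyA against Mock. The share among dim probe sets was not counted. The receptors, the isopentenyltransferases, the LOG enzymes and the cytokinin oxidases were not analysed here.

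The genes whose log2 signals, with the replicate means taken off, were most like those of RR16 over the 12 arrays were AT2G31110 (Pearson's r = 0.949), AT5G24570 (0.936) and AT4G01140 (0.926), out of 8707 tested probe sets with 1 gene. AT4G01140 read 218.7, 170.8 and 142.9 in Mock, 131.6, 126.2 and 96.3 with L-AOPP, 68.3, 93.1 and 60.9 with L-AOPP+IAA and 185.2, 165.9 and 163 with L-AOPP+IPyA. It fell by 1.26 on the log2 scale from Mock to L-AOPP+IAA (adjusted p = 0.0205), a call that ended in a fit of those 2 groups (0.163) and without L-AOPP+IAA replicate 1 or 3 or Mock replicate 1 or 2 (0.0624 to 0.116). The paired fit kept this call (adjusted p = 0.00104) and also called its change of -0.68 from L-AOPP to L-AOPP+IAA (adjusted p = 0.0376, against 0.392 unpaired). UGT76C1 was most like AT5G64090 (0.959), AT5G43690 (0.952) and AT5G03120 (0.951), and UGT76C2 most like AT3G01960 (0.976), AT4G34290 (0.960) and AT2G30695 (0.954). With the replicate means left in, 0 of the 3 genes for RR16, 0 for UGT76C1 and 1 for UGT76C2 (AT3G01960) were again among the closest 3.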

How the data were processed

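Each of 12 one-colour arrays has 1 linear intensity per probe set, which the authors computed with MAS5 (named in the submitters' processing notes). Version and scaling of MAS5 were not given in the sources used here, and detection calls were not used. Of 22810 probe sets, 64 controls were left out. Symbols come from the platform annotation (13513 probe sets with 1 gene, 503 with several, 8730 unlisted), and loci from RefSeq.

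The log2 signal (values under 0.05 raised to 0.05) of all probe sets above the 30th percentile of mean log2 signal (15922) entered a linear model (limma 3.58.1, R 4.3.3, eBayes with intensity trend) over all 12 arrays, and p-values were adjusted by Benjamini-Hochberg within a comparison, two-sided. The fit was also run on simulated data. The planted changes were larger than any mean change of the members, and the unpaired run held no deviations shared by replicate number. That run therefore does not show how well changes of the members' size are found. Deviations from group means correlated at 0.501 to 0.685 in the 18 array pairs with the same replicate number and at -0.582 to 0.123 in the other 36, so the numbers count as pairs. Values are from the unpaired fit unless called paired. The number of arrays limits precision.

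The members and lists were chosen with earlier results of these data known. Named genes are the members, list genes with a probe set, early auxin genes and the 3 most like each member; chromosome neighbours were added. Alternatives were the paired fit, other filters, scalings and log offsets, a fit without trend or of 2 groups, and leaving out arrays. No sequences were used here.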

Additional observations from a re-analysis of the deposited data

Results flagged for a closer look

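For the early auxin genes and AT4G01140, the change from L-AOPP differed between IPyA and IAA in a direct test (limma, adjusted p 3.95e-06 to 0.0279). The early auxin genes were chosen with earlier results of these data known, and AT4G01140 for its likeness to RR16 over these same arrays. The log2 difference, IPyA minus IAA, was -3.84 for GH3.3, -2.32 for HAT2, -1.71 for LBD16, -2.96 for IAA29, -2.99 for IAA30 and 1.23 for AT4G01140. Each had its sign in 3 of 3 pairs. Of all tested probe sets, 14.4% were lower and 16.8% higher in 3 of 3. RR16, UGT76C1 and UGT76C2 did not pass this test.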

How the results depend on the processing

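Across the 6 comparisons and 3 genes, the paired fit (replicate block), other filters, quantile or median scaling, log2(signal + 16), no intensity trend and a 2-group fit gave 138 values, none of which changed direction or became called. RR16 from Mock to L-AOPP+IAA ranged from -0.71 to -0.58 over these (adjusted p 0.0733 with the replicate block to 0.671). The stricter filter, at the 50th percentile, left RR16 out. Of 162 values with 1 array or 1 replicate number left out, 19 turned sign, none called. The turning results ranged, for UGT76C1, from -0.0032 to 0.22 (L-AOPP against Mock), -0.13 to 0.14 (IPyA against L-AOPP), -0.0486 to 0.23 (IPyA against Mock) and -0.25 to 0.0143 (IPyA against IAA). For UGT76C2 they ranged from -0.34 to 0.0179 (L-AOPP against Mock), -0.33 to 0.0291 (IPyA against L-AOPP) and -0.066 to 0.126 (IPyA against IAA). For RR16 they ranged from -0.0545 to 0.26 (IPyA against L-AOPP) and -0.28 to 0.0402 (IPyA against Mock). In the paired fit with a replicate number left out, added after the data were seen, UGT76C1 turned to -0.0096 (L-AOPP against Mock, without replicate 1) and -0.0454 (IPyA against L-AOPP, without replicate 2). RR16 turned to -0.0037 (IPyA against L-AOPP, without replicate 3) and 0.081 (IPyA against Mock, without replicate 1). UGT76C2 turned to 0.105 (L-AOPP against Mock, without replicate 1) and -0.0086 (IPyA against IAA, without replicate 2). The ratio of UGT76C1 to UGT76C2 ranged from -0.14 to 0.37 (IPyA against L-AOPP) and -0.35 to 0.0803 (IPyA against IAA). Probe sets called over the whole array rose from 0, 63, 0, 71 and 60 to 92, 590, 28, 270 and 309 with the replicate block (L-AOPP against Mock, IAA and IPyA against L-AOPP, IAA against Mock, IPyA against IAA), and went from 63, 71 and 60 to 35, 37 and 33 with the stricter filter (IAA against L-AOPP, IAA against Mock, IPyA against IAA). The causes were not tested.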
